A study of Mus musculus with 9 samples.

Results

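Loss of the chemokine gene Cxcl10 was compared with wild type (WT) in long-term haematopoietic stem cells (LT-HSCs), over every gene with enough signal to be tested. The 3 Cxcl10-/- libraries were set against the 3 WT libraries, 6 of the 9 libraries of the series. The other 3, from Cxcr3-/- mice, entered the model only to estimate the spread. Of the 22322 genes in the table, 10866 reached a mean of 1 FPKM over the 9 libraries and were tested. FPKM is a level per transcript length and library size. All mice were C57BL/6 and 6 to 8 weeks old; each library came from 500 to 800 cells of 1 mouse, sorted from bone marrow. The gate kept CD150+ cells that were lineage negative, CD48- and CD135- among those positive for Sca-1 and c-Kit. The genotype names no Cre or tissue, so as labelled the loss is not limited to the stem cells. The labels name no treatment, no litter and no day of preparation.

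LT-HSCs rebuild all blood lineages after transplantation. In the adult marrow most of them are out of cycle, make little protein, and sit next to sinusoidal endothelium and stromal cells that express the leptin receptor and secrete CXCL12 and stem cell factor. CXCL10 is an interferon-induced chemokine that signals through the receptor CXCR3, best known for drawing activated T cells into inflamed tissue. The question here was which cell functions differed after its loss, and which of the changed genes are known from stem cells, from neighbouring endothelial or stromal cells, or from the handling of cells.

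The expected counts summed to between 13550279 and 17904629 in the 6 libraries, and 12561, 13910 and 13203 genes were above 0 in the Cxcl10-/- libraries against 14510, 14837 and 16023 in WT. Cxcl10 had 36, 84 and 3 counts in the WT libraries and 0 in each Cxcl10-/- library. It was at least 39.8-fold lower, against a floor of 3 counts over the group (adjusted p = 0.0233); the call ended without WT replicate 1 or 2 (adjusted p up to 0.0791). The counts of the deleted gene do not go against the labels, at a low WT level. Cxcr3 had 0, 0 and 8 counts in WT and 0 in each Cxcl10-/- library, and Cxcl11 had at most 2 counts, so neither was tested. Cxcl9, the neighbouring ligand gene, had 6, 2 and 40 counts in WT and 141, 193 and 214 in Cxcl10-/-, with no overlap, and did not pass (adjusted p = 0.0736).

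The median and the summed share of the stem cell genes differed little. All 32 genes of the LT-HSC list were tested. Of them 1 was called higher (3.12%) and 2 lower (6.25%), beside 3.52% and 3.7% of all genes tested. The median log2 fold change of the 32 was 0.04, beside 0.06 over all genes tested. The list took 0.812 ± 0.038% of the counts in WT and 0.827 ± 0.0458% in Cxcl10-/- (SD, n = 3; exact permutation p = 0.5). The transcription factor gene Hlf stood at 57.6, 75 and 69.2 FPKM in the WT libraries and 82.3, 69.7 and 66.7 in Cxcl10-/-, and the 2 groups overlap. Slamf1, which encodes the CD150 used in the sort, was at 6.87, 7.4 and 5.23 FPKM in WT and 0.69, 0.71 and 4.12 in Cxcl10-/-, each below the 3 WT libraries, and did not pass (adjusted p = 0.119). The 3 that passed were Kit (-0.75 ± 0.17, log2 fold change ± SE), the stem cell factor receptor, Angpt1 (-0.55 ± 0.12), a ligand of the receptor Tie2 and of opposite sign after the GC correction described below (0.12), and Tie1 (1.17 ± 0.32), a receptor tyrosine kinase also made by endothelium. Each of these calls ended when any 1 WT library was left out (adjusted p up to 0.104, 0.0904 and 0.158), and that of Tie1 also without Cxcl10-/- replicate 1 or 2. The genes of markers that the sort excludes took 0.00394 ± 0.000977% of the counts in WT and 0.00461 ± 0.000877% in Cxcl10-/-, and Cd48 and Flt3 alone reached the level for testing among the 13.

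Over all genes tested many differed. With edgeR's quasi-likelihood test and a Benjamini-Hochberg adjusted p under 0.05, 785 genes (7.22% of those tested) were called, 383 higher in Cxcl10-/- (3.52%) and 402 lower (3.7%). Most of the genes called were already expressed in WT cells: 303 of the 383 higher (79.1%) and 370 of the 402 lower (92%) had a WT mean of at least 5 FPKM. So did 7439 of all 10866 genes tested (68.5%). The 303 took 7.71 ± 0.225% of the counts in WT and 14.1 ± 0.848% in Cxcl10-/-. The 402 fell together from 20.8 ± 0.462% to 8.04 ± 0.493%. The larger part of that fall was from the mitochondrial genome, whose transcripts took 12.9 ± 0.258% and 3.89 ± 0.287%. The 390 called lower outside it went from 7.92 ± 0.206% to 4.17 ± 0.247%. These genes were chosen by the same contrast, so the shares are a description. The FPKM of the 2 groups did not overlap in 382 of the 383 and 384 of the 402, and in 3287 of all 10866 genes tested. A lack of overlap therefore adds little to a call. The WT libraries carried many of the calls: 229, 193 and 253 genes were called without WT replicate 1, 2 or 3, and 60 of the higher and 102 of the lower calls held whichever of the 6 libraries was left out. Those are called stable below.

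Calls were also tied to base composition. Across 10856 genes with a known transcript GC content and the log2 fold change went up together (Spearman rho 0.433, a description, since genes are not independent), with a median of -0.53 in the 1086 genes of lowest GC and 0.55 in the 1086 of highest GC. The genes called higher had a median GC content of 52.8% and a median length of 2419 bases, those called lower 42.3% and 3861 bases, and all genes 49.1% and 3323. After a correction for GC and length within each library, 591 genes were called (5.44%), 400 higher (3.68%) and 191 lower (1.76%), among them 212 of the 383 and 154 of the 402. The correction moved calls in the other direction too: in the 1086 genes of lowest GC those called higher went from 10 to 92 in number and those called lower from 148 to 21. The cause of the relation was not tested. What the correction did is given with many of the gene groups but not with all. A group given without it was not shown to be unaffected.

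**Figure D1:**
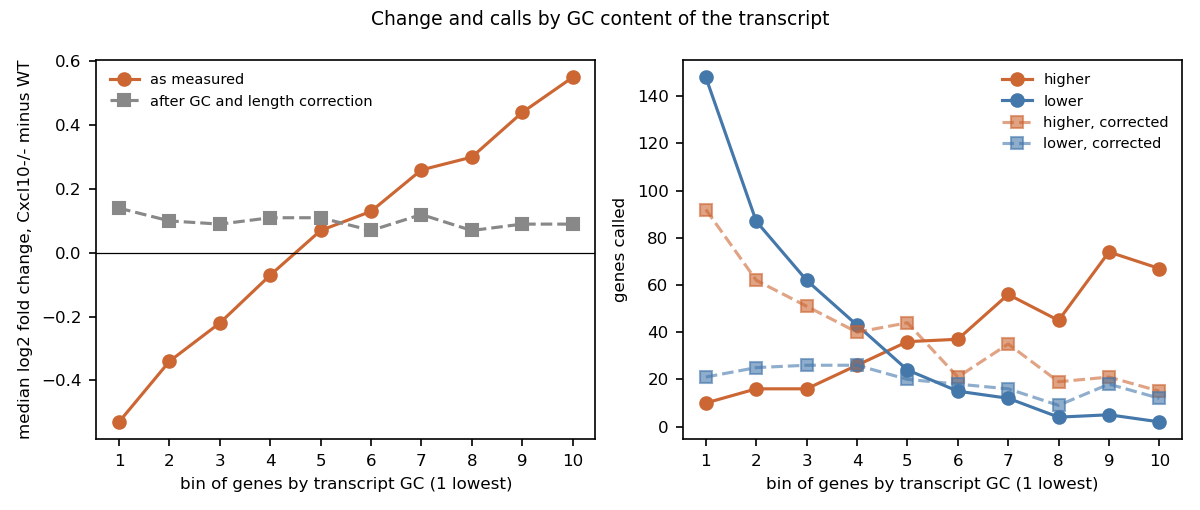
The left panel plots the median log2 fold change (Cxcl10-/- minus WT) in 10 bins of about equal numbers of genes by transcript GC content, as measured (circles) and after the correction for GC and length (squares). As measured it climbs from -0.53 to 0.55, and after the correction it lies between 0.07 and 0.14. The right panel gives the number of genes called higher and lower in each bin, before (circles) and after (squares) the correction.

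The 69 function lists, chosen with earlier results of these data known, held 2271 of the tested genes. Of these lists 37 had calls in 1 direction only, and 8 had none. In 10 lists the share called higher was at least 3 times that of all genes, and in 4 the share called lower was. The highest shares lower were in chromosome segregation, and the highest shares higher in the chaperonin TRiC with prefoldin (35.7%), cytosolic aminoacyl-tRNA synthetases (25%) and lipid uptake (20%).

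**Figure D2:**
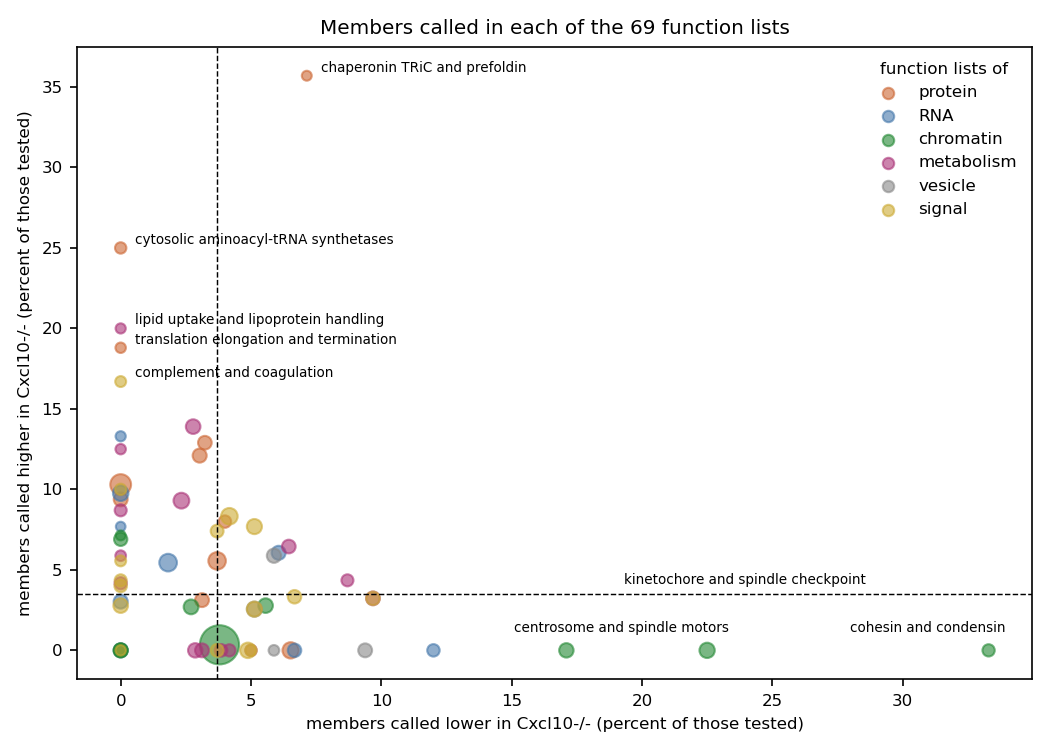
Each circle is 1 of 69 function lists, placed by the percent of its tested members called lower (x axis) and higher (y axis) in Cxcl10-/-, with an area that grows with the number of members tested. The dashed lines mark the shares over all genes, 3.7% lower and 3.52% higher. The 3 chromosome segregation lists lie on the x axis, at 17.1% to 33.3% lower, and the list of the chaperonin TRiC and prefoldin is at the top, at 35.7% higher.

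Some genes that hold and part the chromosomes fell, and none passed in the other direction. Of 24 genes of cohesin, which ties sister chromatids, and condensin, which folds them, 8 were called lower and none higher. Of 40 genes of the kinetochore and the spindle checkpoint 9 were lower and none higher, and of 35 genes of the centrosome and spindle motors 6 were lower and none higher. The medians of the 3 lists were -0.66, -0.98 and -0.86, beside 0.06 over all genes. Most members did not pass, and without WT replicate 2 the counts lower were 2, 3 and 2. After the GC and length correction 3, 5 and 3 members were called lower and none higher, and the medians were -0.29, -0.60 and -0.82, beside 0.10. In bulk RNA, fewer cells in division and less of these transcripts per cell cannot be told apart.

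A sequence shared by many promoters of mitotic genes is the cell cycle homology region, TTTGAA, through which the DREAM complex is known to keep such genes silent in resting cells. In windows from 250 bases before to 50 after the start (RefSeq, GRCm38.p6, searched on both strands), TTTGAA was present in 17.9% of all 32851 windows and in 41 of the 82 genes of the 3 lists that matched a window by symbol, of 99 tested. It was in 10 of the 18 matched genes called lower. CCAAT, the motif of the factor NF-Y, was in 37.4% of all windows, in 50 of the 82 genes and in 12 of the 18. A gene counted as a match if any of its windows held the motif. The shares of genes can lie above the shares of windows for that reason alone. The windows of the 4 genes below, all stably lower, are shown because each carries TTTGAA shortly after the start. Capitals mark that motif. It starts at base 32 after the start in Knl1, 25 in Spc25 and 9 in Hmmr; Kif20b has it at 8 and again at 14, with no base between. A match is a description of the letters and not a measured site.

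Knl1 (chr2:119046869-119047168, plus strand): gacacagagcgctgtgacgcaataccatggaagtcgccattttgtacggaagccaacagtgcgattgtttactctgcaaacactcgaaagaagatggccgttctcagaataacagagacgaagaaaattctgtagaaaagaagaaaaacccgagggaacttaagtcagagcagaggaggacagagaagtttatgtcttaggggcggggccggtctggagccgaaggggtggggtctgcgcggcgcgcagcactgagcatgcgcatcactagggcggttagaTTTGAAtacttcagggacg

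Spc25 (chr2:69206164-69206463, minus strand): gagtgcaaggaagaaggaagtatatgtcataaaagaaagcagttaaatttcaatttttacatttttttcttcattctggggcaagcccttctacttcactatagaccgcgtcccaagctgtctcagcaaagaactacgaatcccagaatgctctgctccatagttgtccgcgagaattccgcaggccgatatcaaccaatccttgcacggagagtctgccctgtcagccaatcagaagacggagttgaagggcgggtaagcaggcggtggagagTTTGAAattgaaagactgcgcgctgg

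Kif20b (chr19:34922108-34922407, plus strand): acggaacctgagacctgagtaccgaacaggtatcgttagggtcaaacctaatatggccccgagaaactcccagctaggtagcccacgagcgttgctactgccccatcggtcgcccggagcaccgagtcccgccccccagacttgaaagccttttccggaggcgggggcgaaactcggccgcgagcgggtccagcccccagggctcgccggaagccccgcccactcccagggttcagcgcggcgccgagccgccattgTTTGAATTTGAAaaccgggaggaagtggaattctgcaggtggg

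Hmmr (chr11:40733388-40733687, minus strand): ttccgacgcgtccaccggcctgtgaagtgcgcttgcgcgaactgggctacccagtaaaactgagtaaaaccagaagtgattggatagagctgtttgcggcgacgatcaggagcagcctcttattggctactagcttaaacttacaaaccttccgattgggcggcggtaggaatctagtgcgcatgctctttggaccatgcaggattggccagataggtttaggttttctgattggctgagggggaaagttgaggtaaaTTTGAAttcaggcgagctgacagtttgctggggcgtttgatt

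Knl1, the kinetochore scaffold that recruits the checkpoint, stood at 22.3, 34.2 and 33.5 FPKM in the WT libraries and 0.45, 4.73 and 2.86 in Cxcl10-/- (log2 -3.30 ± 0.44, SE; adjusted p = 0.00275). Spc25, a subunit of the NDC80 complex that grips microtubules, stood at 146, 159 and 99.2 and 16.4, 22.5 and 41.7 (-2.40 ± 0.35, adjusted p = 0.00387). In both, every Cxcl10-/- library lay below every WT library, and both calls were stable and held after the correction (adjusted p = 0.00697 and 0.00492). The motor gene Kif20b, needed for the end of cytokinesis, went from 34.9, 30.7 and 33.3 to 6.24, 5.88 and 9.08 FPKM (-2.48 ± 0.37, adjusted p = 0.00438). Hmmr, whose product focuses spindle poles, was at 10.9, 16.5 and 14.5 and 0.89, 4.51 and 2.43 (-2.51 ± 0.47, adjusted p = 0.00984). Sgo2a, the shugoshin that protects cohesin at the centromere, was at 3.55, 9.42 and 4.21 and 0.6, 0.49 and 0.1 (-3.96 ± 0.65, adjusted p = 0.00635), near 0 in each Cxcl10-/- library. These 3 were stable and also held after the correction (adjusted p = 0.013, 0.0201 and 0.012).

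Smc2, the core ATPase of both condensins, dropped from 44.9, 57.4 and 41.1 to 22, 15.5 and 23.7 FPKM (-1.59 ± 0.26, adjusted p = 0.00572) and held after the correction (-0.96, adjusted p = 0.0358). Cenpk, of the inner kinetochore, stood at 132, 136 and 144 and 85.5, 61.8 and 63.9 (-1.55 ± 0.25); its call was stable but not kept after the correction (-0.73, adjusted p = 0.0948). The remaining calls of the 3 lists were not stable. Smc4, the partner of Smc2, passed (-0.83 ± 0.16) but not without WT replicate 2 (adjusted p up to 0.0692), and Mad2l1, the checkpoint effector (-1.36 ± 0.26), not without WT replicate 1 or 2 (adjusted p up to 0.0549). Aurkb, the kinase that corrects faulty attachments, was at 13.6, 16.3 and 20.0 FPKM in WT and 5.12, 0.23 and 1.38 in Cxcl10-/- (-3.01 ± 0.76); that call ended without WT replicate 1, 2 or 3 or Cxcl10-/- replicate 3 (adjusted p up to 0.105).

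Parts of the neighbouring machinery moved the same way and others did not. Nup153 and Seh1l of the nuclear pore fell stably (-1.10 ± 0.20 and -1.23 ± 0.22, adjusted p = 0.0086 each), 2 of 3 calls lower among 25 pore genes with none higher; the median of that list was -0.01. After the correction Nup153 passed and Seh1l did not (adjusted p = 0.0165 and 0.0682). Of 36 genes of homologous recombination and Fanconi repair 2 fell (5.56%) and 1 rose (2.78%), near the 3.7% and 3.52% of all genes tested. Fanci, of the complex that is loaded at crosslinks, stood at 1.92, 2.21 and 3.22 FPKM in WT and 0, 0.05 and 0.2 in Cxcl10-/- (adjusted p = 0.00736; stable). Blm, a helicase gene, fell (-1.94 ± 0.41) but not without WT replicate 2 or 3 (adjusted p up to 0.0858). None of 21 genes of end joining and damage signalling was called. The median of the recombination list was -0.44, and it was 0.18 among 37 genes of base, nucleotide excision and mismatch repair, where 1 rose and 1 fell.

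**Figure D3:**
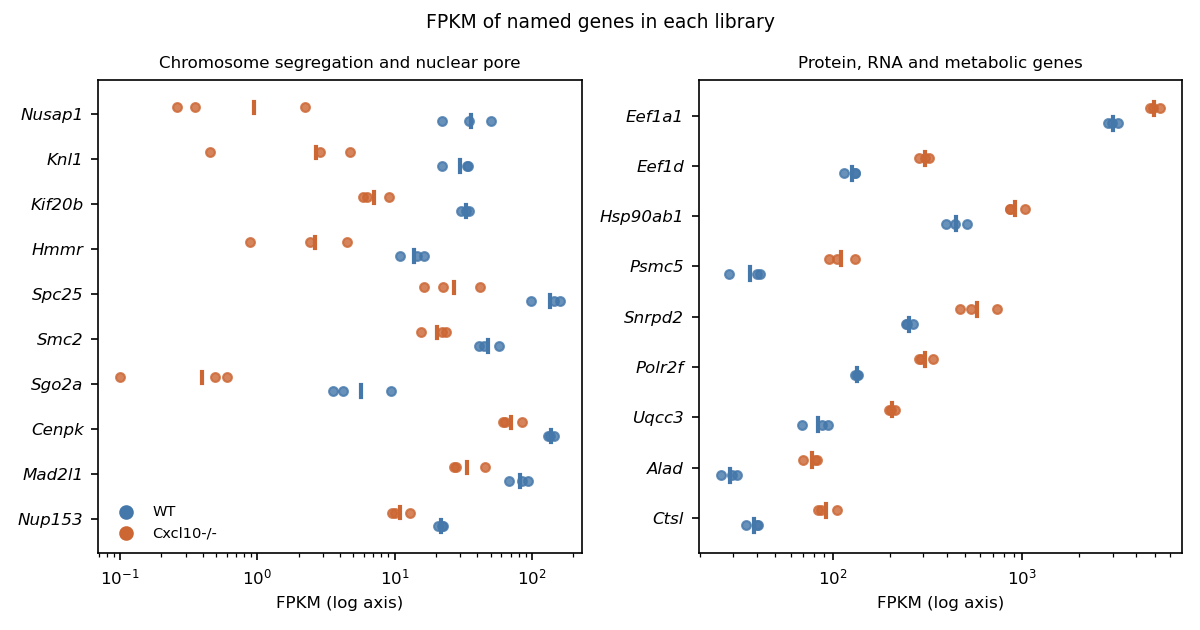
FPKM of named genes in each of the 6 libraries (points; log axes) with the mean of each group (vertical bars), WT in blue and Cxcl10-/- in orange. For each of the genes shown the 3 libraries of 1 group lie apart from the 3 of the other.

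Several lists of making and folding protein had a larger share called higher than all genes. Of 20 cytosolic aminoacyl-tRNA synthetase genes, which charge tRNAs, 5 were called higher and none lower (median 0.63); of 14 genes of the chaperonin TRiC and its helper prefoldin, which fold actin and tubulin, 5 were higher and 1 lower (median 0.41). Of 78 mitochondrial ribosomal protein genes 8 were higher and none lower, with 62 of the 78 above 0 (median 0.37). Of 16 genes of elongation and termination 3 were higher and none lower (median 0.15). After the GC and length correction the counts higher were 3, 5, 8 and 3, with none lower in any of the 4 lists, and the medians were 0.62, 0.53, 0.32 and 0.14. Leaving out Cxcl10-/- replicate 3 brought the mitochondrial ribosomal count to 4, and leaving out WT replicate 1, 2 or 3 brought it to 2, 0 and 2. In the same order, leaving out a WT library brought the synthetases from 5 to 0, 0 and 1 and the chaperonin list from 5 to 0 each time. With a replicate block they had 1 and 2 calls higher.

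The most abundant of these, Eef1a1, which delivers charged tRNAs to the ribosome, stood at 2834, 2981 and 3183 FPKM in WT and 4735, 4867 and 5332 in Cxcl10-/- (0.65 ± 0.09, adjusted p = 0.00366). Eef1d, which recharges it, stood at 131, 115 and 132 and 309, 287 and 321 (1.18 ± 0.17, adjusted p = 0.00387). Both calls were stable and held after the correction (adjusted p = 0.00264 and 0.00292), and the libraries of the groups did not overlap. Vars and Rars, the valine and arginine synthetase genes, rose by 1.35 ± 0.28 and 0.83 ± 0.21; Vars did not pass without WT replicate 1 or 2 (adjusted p up to 0.0782) and Rars not without WT replicate 1, 2 or 3 or Cxcl10-/- replicate 1 or 3 (adjusted p up to 0.131). Pfdn6 of prefoldin (1.23 ± 0.24) and Cct3 of the chaperonin (0.91 ± 0.20) lost their calls without any 1 WT library (adjusted p up to 0.0719 and 0.0979). Mrpl57 (0.96 ± 0.19) and Mrps21 (0.80 ± 0.16), of the large and small mitochondrial subunits, did not pass without WT replicate 1 or 2 (adjusted p up to 0.0801) and without WT replicate 2 or 3 (adjusted p up to 0.0822).

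The initiation list had calls in both directions, at shares near those of all genes. Of 54 genes 3 were higher (5.56%) and 2 lower (3.7%), beside 3.52% and 3.7% of all genes tested. The 2 lower were the stable ones: Eif4e, which binds the mRNA cap, went from 246, 182 and 158 to 100.3, 92.4 and 106 FPKM (-1.01 ± 0.18, adjusted p = 0.0086), and Eif4g2, an alternative scaffold for initiation, from 196, 237 and 219.7 to 117, 130.1 and 105 (-0.77 ± 0.11, adjusted p = 0.00387). After the correction Eif4g2 passed and Eif4e did not (adjusted p = 0.0366 and 0.172). Eif3d, of the eIF3 complex, rose (1.03 ± 0.20) but not without WT replicate 1 or 2 (adjusted p up to 0.0767). Among chaperones, Hsp90ab1, the constitutive cytosolic HSP90, stood at 395, 513 and 440.2 in WT and 1041, 858 and 859 in Cxcl10-/- (0.94 ± 0.12, adjusted p = 0.00218; 0.00363 after the correction), a stable rise. Of 25 chaperone genes 2 were higher (8%) and 1 lower (4%).

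Protein breakdown and entry into organelles had calls in both directions. Of 33 proteasome genes 4 were higher (12.1%) and 1 lower, and of 31 genes of mitochondrial protein import 4 were higher (12.9%) and 1 lower, with medians of 0.14 and 0.15. After the correction 2 and 3 were higher and none lower. Psmc5, an ATPase of the 19S cap, stood at 39.9, 28.3 and 41.2 FPKM in WT and 96.2, 131 and 106 in Cxcl10-/- (1.51 ± 0.25, adjusted p = 0.00646; 0.00589 after the correction), a stable rise with all 3 Cxcl10-/- libraries above WT. Psmc6, another ATPase of the same ring, fell (-1.0 ± 0.27) but not without WT replicate 1, 2 or 3 or Cxcl10-/- replicate 1 or 2 (adjusted p up to 0.154), nor after the correction (adjusted p = 0.784). Pmpca, a subunit of the peptidase that trims imported proteins (1.16 ± 0.25), and Timm17a, of the inner membrane translocase (1.20 ± 0.26), rose, Pmpca not without WT replicate 1, 2 or 3 (adjusted p up to 0.0965) and Timm17a not without WT replicate 2 or 3 (adjusted p up to 0.1). None of 28 COPI and COPII vesicle genes was called.

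Calls among genes that handle RNA were spread over several lists. Of 41 core spliceosome genes 4 were higher and none lower, and 7 and none after the correction. Snrpd2, of the Sm ring, stood at 267, 244 and 246 FPKM in WT and 538, 468 and 735 in Cxcl10-/- (1.12 ± 0.19, adjusted p = 0.00646), and Polr2f, a subunit shared by the 3 nuclear polymerases, at 137, 131 and 134 and 293, 340.3 and 285 (1.04 ± 0.17, adjusted p = 0.00646); both were stable. Hnrnpll, a splicing regulator known from lymphocytes, fell from 25.8, 38.5 and 25.8 to 6.55, 8.75 and 10.2 (-1.89 ± 0.26, adjusted p = 0.00314; stable), 1 of 2 calls lower among 30 SR and hnRNP genes with none higher. After the correction 5 of the 30 SR and hnRNP genes were higher and 1 lower, and their median went from -0.09 to 0.27. Of 55 genes of tRNA and rRNA modification 3 were higher (5.45%) and 1 lower (1.82%). Of 33 genes of the RNA exosome and decay 2 were higher and 2 lower (6.06% each), and of 33 Mediator genes 1 (3.03%) and none. Over all genes tested 3.52% were higher and 3.7% lower. The 2 higher of 15 genes of mRNA decay adaptors, Btg2 and Zfp36, are also immediate-early genes and are given with them. No member was called among 14 Integrator genes, 33 genes of mitochondrial RNA maintenance, or 16 subunits of polymerases I and III.

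Chromatin regulators were mostly not called. None of 31 genes of NuRD, histone deacetylases and corepressors and none of 34 genes of histone lysine methylation passed. Smarce1, a subunit of SWI/SNF, rose from 25.9, 22 and 24.4 to 61.4, 49 and 54.9 FPKM (1.10 ± 0.20, adjusted p = 0.00951; 0.00196 after the correction) but not without WT replicate 2 (adjusted p up to 0.0634). The 290 zinc finger genes named Zfp, many of them repressors of mobile elements, had a median of -0.31, with 11 lower and 1 higher. This group turned with base composition: its median GC content was 43.2%, and after the correction its median was 0.05, with 5 higher and 2 lower. Zfp655 kept its call (from 43.5, 28.1 and 33.5 to 5.6, 12.5 and 7.98 FPKM, -1.73 ± 0.26; -1.21, adjusted p = 0.013 after the correction; stable), and Zfp458, at 2.04, 1.28 and 1.96 FPKM in WT and 0 in each Cxcl10-/- library, was at least 79.6-fold lower. Zinc finger genes have near copies, so reads may be split among them and these values are uncertain.

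In metabolism the calls higher were spread over many lists. Of 15 genes of lipid uptake and lipoprotein handling 3 were higher and none lower (median 0.88; 2 higher and 0.38 after the correction), and leaving out any 1 WT library brought the count to 1. Fabp4, a fatty acid carrier that is also in the endothelial list, stood at 5.67, 18.2 and 5.92 FPKM in WT and 287, 455 and 341 in Cxcl10-/- (5.10 ± 0.70, adjusted p = 0.00313; stable). Cd36, a fatty acid and scavenger receptor gene, stood at 0.86, 1.48 and 0.29 and 6.3, 21 and 8.39 (4.15 ± 0.84, adjusted p = 0.0138), a call lost without WT replicate 1, 2 or 3 (adjusted p up to 0.0687). Of 16 genes of amino acid transport and ATF4 targets 2 were higher and none lower (median 0.57), and neither was stable. Of 36 genes of iron, haem and iron-sulfur clusters 5 were higher and 1 lower. Alad, an early enzyme of haem synthesis, stood at 29.7, 31.5 and 25.7 FPKM in WT and 82.5, 80.5 and 69.5 in Cxcl10-/- (1.33 ± 0.24, adjusted p = 0.008; stable; 0.0296 after the correction). Ncoa4, the receptor that sends ferritin to the lysosome, fell from 113, 137 and 126 to 64.9, 82.1 and 54.6 (-0.97 ± 0.16, adjusted p = 0.00644; stable; 0.0188). Hscb, Glrx5 and Lyrm4, of iron-sulfur cluster assembly, were higher by 0.91, 0.87 and 0.84 on the log2 scale, and each lost its call without any 1 WT library (adjusted p up to 0.13, 0.176 and 0.18).

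Of 43 respiratory chain assembly genes 4 were higher and 1 lower, with 32 of 43 above 0 (median 0.37; 0.36 after the correction). Uqcc3, an assembly factor of complex III, stood at 88.1, 68.6 and 94.6 and 212, 204 and 198 FPKM (1.20 ± 0.19, adjusted p = 0.00593; stable), and Cox17, which carries copper to complex IV, at 488, 461 and 459.8 and 921, 814 and 923 (0.83 ± 0.16), not called without WT replicate 2 or 3 (adjusted p up to 0.0681). Pdk3, a kinase that shuts pyruvate dehydrogenase, fell from 62.2, 65.7 and 70.4 to 8.17, 25.3 and 13.9 (-2.16 ± 0.34, adjusted p = 0.00543; stable; 0.00761 after the correction). The mitophagy receptors Bnip3 (-1.49 ± 0.34) and Fundc1 (-1.32 ± 0.26) fell while the fission adaptor Fis1 rose (0.69 ± 0.16); none of the 3 passed after the correction (adjusted p = 0.058, 0.231 and 0.0993), and each lost its call without at least 1 WT library (up to 0.108, 0.0562 and 0.124). Mdh2 of the TCA cycle (0.99 ± 0.18) and Etfb, which takes electrons from fatty acid oxidation (1.13 ± 0.20), rose, Mdh2 not without WT replicate 2 or 3 (adjusted p up to 0.0542) and Etfb not without WT replicate 2 (adjusted p up to 0.0514).

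Of the signalling lists, complement and coagulation had the highest share higher, 3 of 18 genes (16.7%) with none lower; 2 of the 18 entered the test only through their Cxcl10-/- level. The median was 0.91, and after the correction 4 were higher, with a median of 0.75. Serping1 was the stable one and is given with the stromal genes, whose list also holds it. Serpine2, an inhibitor of serine proteases, went from 2.74, 0.68 and 1.46 to 16.9, 33.4 and 12.5 FPKM (3.93 ± 0.88, adjusted p = 0.0222), a call lost without WT replicate 2 or 3 or Cxcl10-/- replicate 2 (adjusted p up to 0.112). In the lysosome Ctsl, the protease cathepsin L, rose from 40.2, 40.3 and 35.1 to 87.1, 106 and 83.7 FPKM (1.10 ± 0.18, adjusted p = 0.00646; 0.00264 after the correction), while Lamp2, a lysosomal membrane protein, fell from 81.7, 77 and 73.6 to 39.1, 45.2 and 50.2 (-1.08 ± 0.16, adjusted p = 0.00449), a call not kept after the correction (0.115). Of the 39 lysosomal genes 1 was higher (2.56%) and 2 were lower (5.13%), near the 3.52% and 3.7% of all genes tested. Vps35, the core of the retromer that recycles receptors, fell from 56.8, 68.5 and 57.6 to 34.4, 28.6 and 20.6 (-1.22 ± 0.19, adjusted p = 0.00531; 0.195 after the correction). Rgs18, which dampens G protein signals in megakaryocytes and platelets, fell from 821, 687 and 643 to 411, 337 and 358 (-1.05 ± 0.15, adjusted p = 0.00369) but not after the correction, where the sign turned (0.10, adjusted p = 0.749).

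Some receptor genes changed at the edge of detection. Il18r1, a receptor chain for an interleukin, stood at 2.81, 3.42 and 7.77 FPKM in WT and 0, 0 and 0.04 in Cxcl10-/- (adjusted p = 0.00866; stable), with a single count left in the 3 Cxcl10-/- libraries. Osmr, the oncostatin M receptor of stromal and endothelial cells, stood at 0.01, 0.05 and 0.02 in WT and 6.69, 1.44 and 2.1 in Cxcl10-/- (adjusted p = 0.00708; stable). At that WT level Osmr could reach the test only through libraries where it is higher, so it could hardly have been called lower. Of 30 tested genes of cytokine and growth factor receptors 2 entered the test only through Cxcl10-/-. Of 48 actin genes 4 were higher (8.33%) and 2 lower (4.17%). Capza2, which caps filaments, fell stably from 314, 257 and 246 to 141, 145 and 163 (-0.94 ± 0.17, adjusted p = 0.00866) and lost its call after the correction (-0.05, adjusted p = 0.923). After the correction 1 of the 48 actin genes was higher and 1 lower.

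Some genes of neighbouring marrow cells rose from very low levels. Of 22 tested endothelial genes that stem cells are not known for, 9 were higher and 1 lower; 10 of the 22 entered the test only through their level in Cxcl10-/-, so this count had to lean that way and is not a measure of how many rose. Of 12 genes of leptin receptor stroma 7 were higher and none lower (5 of the 12 entered the same way), and of 7 bone matrix genes 2 were higher (2 of the 7 entered the same way), so these counts lean that way too. After the GC and length correction 6 endothelial, 4 stromal and 2 bone genes were higher and none lower. Among 23 genes that stem cells share with endothelium 2 were higher and none lower (median 0.32). None of the 23 was called after the correction. Stab1 and Stab2, scavenger receptors of sinusoids, stood at 0.19, 0.6 and 1.9 and 0.08, 0.14 and 0.16 FPKM in WT and at 61.8, 53.7 and 40.1 and 5.76, 6.7 and 4.14 in Cxcl10-/- (6.37 ± 0.96 and 5.23 ± 0.88, adjusted p = 0.00438 and 0.00662; both stable). The junction gene Cldn5 went from 0.34, 0.42 and 0.63 to 13.8, 16.8 and 13.4 (4.88 ± 0.85, adjusted p = 0.00741; stable), and Cdh5, VE-cadherin, stood at 0, 0.61 and 1.15 and 12.4, 4.73 and 3.38 without passing (adjusted p = 0.105).

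The stromal genes were highest in 1 library. Cxcl12 stood at 0.11, 0.01 and 1.24 FPKM in WT and 14.1, 119 and 10.8 in Cxcl10-/-, with replicate 2 far above the others (6.74 ± 1.32, adjusted p = 0.012), and the call ended without WT replicate 1 or 2 or Cxcl10-/- replicate 2 (adjusted p up to 0.0609). Adipoq and Hp, made by the same stroma, were at 0 in WT and at 1.37, 21.8 and 0.05 and 0.55, 42.1 and 0.75 in Cxcl10-/-; both calls ended without Cxcl10-/- replicate 2 or any WT library (adjusted p up to 0.208 and 0.192). Without Cxcl10-/- replicate 2, 3 of the stromal genes were higher in place of 7. Serping1, the C1 inhibitor, was at 0 in WT and 9.68, 17.1 and 6.28 in Cxcl10-/- (at least 286-fold higher, adjusted p = 0.00512; stable). Vcam1, an adhesion molecule of stroma, endothelium and macrophages, went from 0.69, 1.63 and 3.77 to 19.8, 35.9 and 23.2 (3.74 ± 0.64, adjusted p = 0.00705; stable), and Ibsp, bone sialoprotein, from 0, 0 and 0.62 to 22.9, 81.5 and 16.2 (adjusted p = 0.00517; stable). Of the defining markers, Nos3 was at 0 in every WT library and Lyve1 in every Cxcl10-/- library. Of the stromal list 6 of 22 genes were at 0 in every WT library and none in Cxcl10-/-. In the other lists defining markers were absent from Cxcl10-/- as well. Of 13 pericyte genes 4 (Acta2, Myh11, Rgs5 and Higd1b) were at 0 in every Cxcl10-/- library and 1 in every WT library. Of the adipocyte list 4 and 2 were, and of the bone list 5 and 7, the 5 being Sp7, Bglap, Bglap2, Postn and Phex. Fewer genes of any kind were above 0 in Cxcl10-/- (12561 to 13910, against 14510 to 16023 in WT). The pericyte list as a whole took 0.000808 ± 0.000432% of the counts in WT and 0.00777 ± 0.00169% in Cxcl10-/- (SD, n = 3). Of its 3 tested genes 1 was called higher, and all 3 entered the test only through Cxcl10-/-.

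As a share of RNA these lists were small. The endothelial list took 0.0661% to 0.0885% of the counts of a WT library and 0.107% to 0.149% of a Cxcl10-/- library; without Fabp4, a fatty acid carrier of capillaries, it took 0.0645% to 0.088% and 0.0769% to 0.108%, which overlap. The stromal list took 0.0265% to 0.0319% and 0.059% to 0.141%, and the bone list 0.0141% to 0.0157% and 0.0254% to 0.0647% (exact permutation p = 0.1 for each of the 3 full lists, the smallest that 3 against 3 libraries allow). With the pericyte and adipocyte lists added they took 0.123 ± 0.0131% in WT and 0.266 ± 0.0887% in Cxcl10-/- (SD, n = 3). The 303 genes called higher from a WT mean of at least 5 FPKM took 7.71% and 14.1%. They were chosen for their rise in this contrast and the marker lists were not, so the shares are not a like comparison. Of the 383 genes called higher, 19 were in an endothelial, stromal, bone, pericyte or adipocyte list and 11 of these had a WT mean under 1 FPKM. How far RNA of such cells moved the genes outside the lists was not tested.

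**Figure D4:**
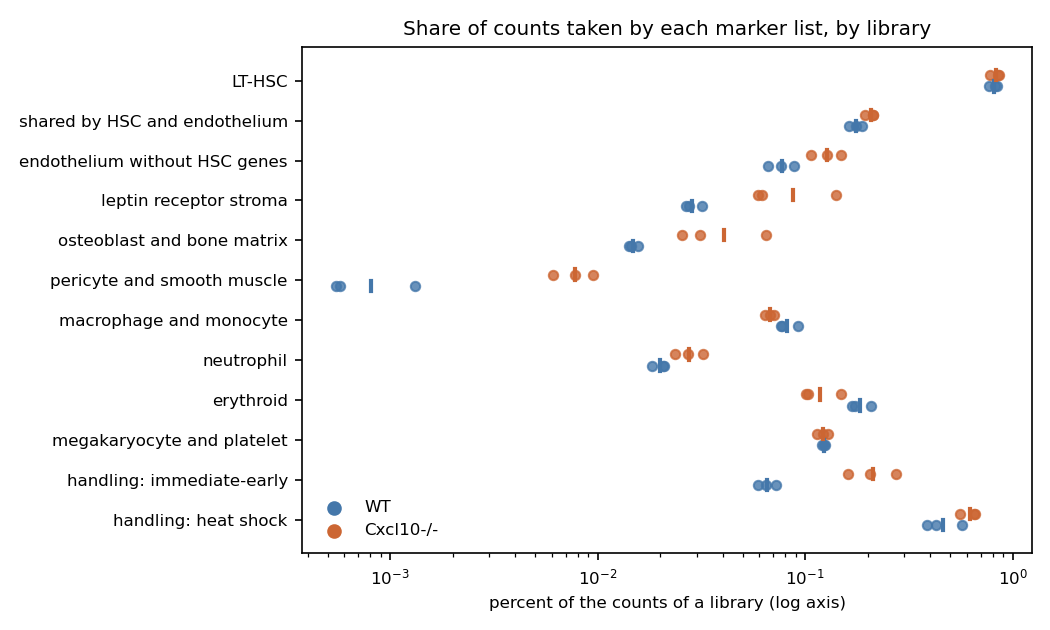
Percent of the counts of each library (log axis) taken by 10 cell marker lists and 2 handling lists, with WT in blue, Cxcl10-/- in orange, points for libraries and bars for means. The LT-HSC points overlap near 0.8%, while the pericyte, stromal, bone and immediate-early points of Cxcl10-/- lie to the right of those of WT.

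Markers of other blood cells did not rise alike. The macrophage and monocyte list took 0.0763% to 0.0925% of the counts in WT and 0.0642% to 0.071% in Cxcl10-/-, and the erythroid list 0.168% to 0.207% and 0.101% to 0.148%. The neutrophil list took 0.0183% to 0.0209% and 0.0236% to 0.0322%, with 5 of its 17 genes at 0 in all libraries of either group and none called. Single genes did not follow these sums. Among tested members 5 of 8 macrophage, 8 of 11 erythroid and 6 of 7 neutrophil genes had a log2 fold change above 0. The medians were 0.63, 0.71 and 2.29, and 0.25, 0.24 and 2.75 after the correction. Of the 7 neutrophil genes 2 entered the test only through Cxcl10-/-. Car2, carbonic anhydrase 2 of red cell precursors and stem cells, fell from 1086, 850.2 and 849 to 479.6, 510.4 and 398 FPKM (-1.10 ± 0.14, adjusted p = 0.00197; 0.0025 after the correction), and its adjusted p was at most 0.00829 with any library left out. Mmrn1, multimerin of platelets, fell from 70.5, 75.8 and 75.7 to 39.5, 38.5 and 21.4 (-1.26 ± 0.20, adjusted p = 0.00572; stable), the 1 call among 18 megakaryocyte genes.

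Many genes that respond within minutes to handling and other stimuli rose. Of 28 immediate-early genes 16 were higher and none lower (median 2.09), and 15 and none after the correction. Without WT replicate 1, 2 or 3 the count higher was 7, 5 and 8; 3 of the 28 entered the test only through Cxcl10-/-. Ier2 went from 13.1, 16.4 and 13.4 to 114, 106 and 61.3 FPKM (2.61 ± 0.30, adjusted p = 0.00126) and Jun, an AP-1 subunit gene, from 4.08, 4.05 and 1.61 to 27.8, 27.8 and 22.4 (2.90 ± 0.54, adjusted p = 0.0101), both stable. Btg2, an antiproliferative gene, stood at 0.66, 0.45 and 2.57 and 7.56, 52.6 and 11.5 (4.18 ± 0.84), and Zfp36, whose product destroys AU-rich mRNAs, at 2.43, 3.6 and 4.69 and 29.2, 34.6 and 9.11 (2.72 ± 0.55); neither passed without WT replicate 1 or 2 (adjusted p up to 0.0719 and 0.0729). The list took 0.0595% to 0.0719% of the counts in WT and 0.16% to 0.273% in Cxcl10-/- (exact permutation p = 0.1). The heat shock list, also raised by dissociation, took 0.388% to 0.568% and 0.555% to 0.659%, which overlap, with 1 of 10 genes called higher. Among the immediate-early genes TTTGAA was in a promoter window of 4 of 23 matched genes and the cyclic AMP response element, TGACGTCA, of 4 of 23. Of all windows 17.9% and 1.79% held them, a share of windows and not of genes. TGACGTCA was also in 7 of the 82 matched chromosome segregation genes and in 4 of the 18 called lower. No difference between the sets was tested. The AP-1 site, TGAGTCA, was in 1 of the 23 immediate-early genes (5.2% of all windows) and the CArG box in 1 (1.63%).

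**Figure D5:**
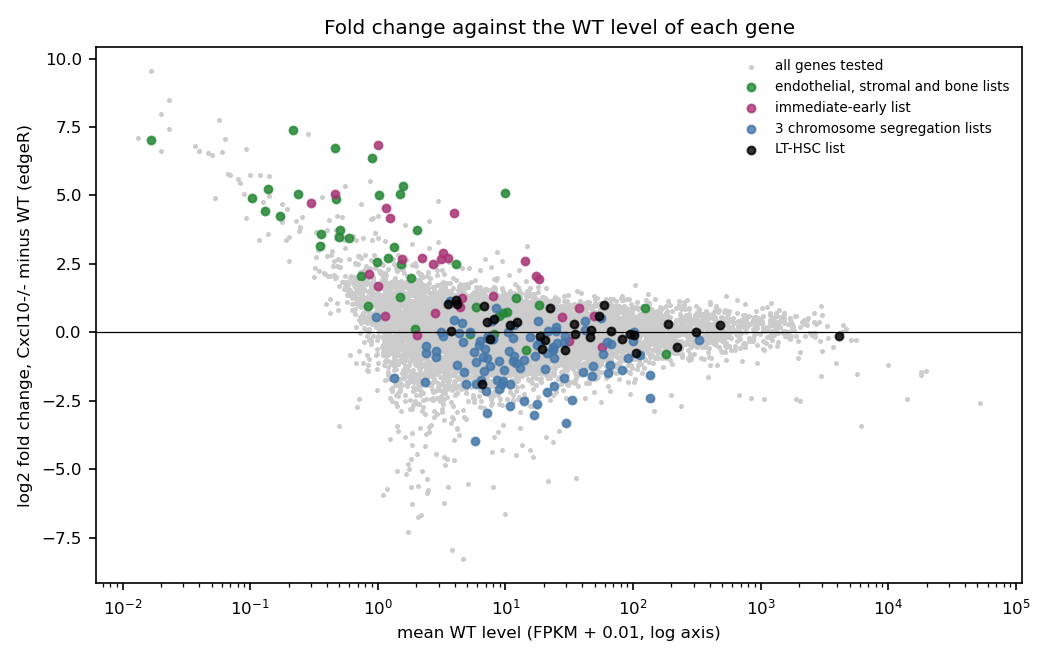
Log2 fold change of each tested gene (y axis, Cxcl10-/- minus WT, edgeR) against its mean WT level (x axis, FPKM + 0.01, log axis). Endothelial, stromal and bone genes (green) are mostly high at the left, immediate-early genes (purple) high in the middle, chromosome segregation genes (blue) mostly below 0, and LT-HSC genes (black) near 0. Genes with no count in 1 whole group have no fitted value and are left out.

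Setting aside the endothelial, stromal, bone, pericyte, adipocyte, handling and other blood cell lists, but not the LT-HSC, shared, progenitor and megakaryocyte lists, 346 of the 383 genes called higher and 399 of the 402 called lower remained, and 293 and 367 of these had a WT mean of at least 5 FPKM. Of all genes tested 68.5% had such a WT mean. The largest rises among the genes that remained were not of 1 function. Mfsd4a, a solute carrier family gene, stood at 10.2, 4.98 and 5.73 FPKM in WT and 68.2, 31.1 and 43.3 in Cxcl10-/- (2.66 ± 0.39, adjusted p = 0.00387). Fcgrt, the neonatal Fc receptor that recycles IgG and albumin, stood at 4.49, 6.5 and 7.95 and 25.5, 25.3 and 43 (2.28 ± 0.40, adjusted p = 0.00738). Ppan, of ribosome maturation, stood at 7.67, 9.74 and 6.89 and 45.2, 25.3 and 30.3 (1.97 ± 0.34), Tfpt, of the INO80 remodeller, at 10.5, 13.9 and 18.9 and 57.1, 43.8 and 59 (1.88 ± 0.33), and Edf1, a ribosome-associated coactivator, at 124, 85.2 and 103 and 374, 363 and 371 (1.74 ± 0.20, adjusted p = 0.00143). These 5 and Safb2, a scaffold attachment factor gene (1.76 ± 0.30), were stable and passed after the correction (adjusted p from 0.00281 to 0.0233). No overlap between the groups was a condition for naming them here. Saa3, an acute phase gene, rose as well (2.08 ± 0.31, adjusted p = 0.00387; stable), but serum amyloid genes are near copies and the value is uncertain. Kank3 and Matk rose with calls that ended without any 1 WT library (2.39 ± 0.54 and 2.00 ± 0.45; adjusted p up to 0.116 and 0.115).

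The largest falls included genes of cell division, export and signalling. Nusap1, which bundles spindle microtubules, went from 22.1, 35.1 and 50.6 to 0.35, 2.23 and 0.26 FPKM (-5.33 ± 0.67, adjusted p = 0.00197; stable), and Nxt2, an mRNA export cofactor, from 17.8, 18.7 and 10.4 to 0.09, 1.53 and 0.93 (-4.30 ± 0.82, adjusted p = 0.0106; stable). H2ac4, a histone H2A gene, had 12.4, 20.3 and 15 FPKM in WT and 0 in each Cxcl10-/- library (at least 116-fold lower; stable), but histone genes share sequence and this value is uncertain. Rps6ka6, a kinase of the RSK family, stood at 3.08, 5.65 and 6.52 and 0, 0.02 and 0.31 (-5.54 ± 1.18), Tm6sf1, a membrane protein gene, at 12.4, 12.7 and 13.9 and 2.12, 0.94 and 0.24 (-3.51 ± 0.81), and the cytokinesis gene Anln at 10.0, 8.49 and 5.19 and 1.14, 0.09 and 0.03 (-4.36 ± 0.95); Rps6ka6 did not pass without WT replicate 2 or 3 (adjusted p up to 0.0715), Tm6sf1 not without WT replicate 1, 2 or 3 (adjusted p up to 0.0871) and Anln not without WT replicate 1 or 2 (adjusted p up to 0.0692). One of the identifiers with the symbol Zc3h11a was also among the largest, at 3.49, 7.91 and 5.73 FPKM in WT and 0 in Cxcl10-/-. Another identifier with that symbol was called in neither direction, so reads may have been split between them and no fall of the gene is reported.

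Among the 31 genes called higher from a WT mean under 1 FPKM, 17 were in none of the lists set aside. A gene with such a WT mean reached the test only through a higher level in the Cxcl10-/- or Cxcr3-/- libraries. Of 399 such genes tested 31 were called higher and 0 lower, a count that had to lean that way. The 31 were chosen by the same contrast, so their share is a description. The 31 together took 0.00224 ± 0.000715% of the counts in WT and 0.109 ± 0.0448% in Cxcl10-/-, highest in replicate 2 at 0.16%. Il13ra2, a decoy interleukin receptor, stood at 0, 0.04 and 0 FPKM in WT and 3.6, 7.6 and 10.4 in Cxcl10-/- (adjusted p = 0.00736), and Rgs4, which ends G protein signals, at 0, 0 and 0.02 and 14.2, 8.76 and 2.06 (adjusted p = 0.00646). Chrdl1, an antagonist of BMPs, was at 0 in WT and 2.25, 1.98 and 5.01 in Cxcl10-/- (at least 189-fold higher, adjusted p = 0.0102). These 3 were stable. Rarres2, which encodes chemerin, stood at 0, 0.82 and 0 and 17.8, 76.6 and 52.5 and did not pass without WT replicate 1 or 3 (adjusted p up to 0.0904), and Fam167b, at 0 in WT and 18, 19.3 and 6.36 in Cxcl10-/-, did not pass without WT replicate 1, 2 or 3 (adjusted p up to 0.104). The endothelial, stromal and bone lists were higher in the same 3 libraries, with the stromal and bone shares also highest in replicate 2, and which cells these transcripts came from was not tested.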

How the data were processed

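RNA of sorted LT-HSCs was amplified and sequenced by the authors; fastp, HISAT2, StringTie and RSEM are listed in the submitters' processing notes, with neither version nor genome build given in the sources used here. Per the file headers, the deposited table gives FPKM and counts for each library; 87.1% of the counts are whole, so they are taken for estimated counts, deposited by the authors, and were rounded to whole numbers before testing. Without molecular identifiers, floors cover counting error alone.

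The test took genes whose mean over 9 libraries reached 1 FPKM and was run with edgeR 4.0.16 in R 4.3.3 (quasi-likelihood test, TMM factors, 1 mean per genotype, Benjamini-Hochberg over 10866 genes, called under an adjusted p of 0.05). The standard error of a log2 fold change is its size divided by the square root of the F statistic. Fold changes come from the counts and levels are the authors' FPKM; where the isoforms used differ, the ratio of FPKM and the fold change differ. A gene with no count in a group is given a bound from a floor of 3 counts over the group. GC content and length of transcripts are from GENCODE M21, and 22267 of the identifiers matched. Their effect was removed in 1 alternative with smooth offsets per library. Other alternatives were limma 3.58.1 with pseudocounts of 1 and 0.1, DESeq2 1.42.0, other size factors, other filters, the 6 libraries alone, a replicate block, quality weights, no mitochondrial genes, and each of the 6 libraries left out. The procedure was tested on simulated data. The libraries are separate mice, and p-values measure the spread between them.

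The comparison and the 87 gene lists (69 of functions, 18 of markers) were chosen with earlier results of these data known. Named genes are Cxcl10, Cxcr3, Cxcl9 and Cxcl11; up to 4 called members of a list by p; at most 12 genes per direction, by size of fold change, with a WT mean of at least 5 FPKM, no overlap and no marker list; up to 8 called from a WT mean under 1 FPKM; and any list member given with its values. Some genes that fall under the rule are not reported here.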

Additional observations from a re-analysis of the deposited data

How the results depend on the processing

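Beside the 785 genes called (383 higher, 402 lower), the count moved by more than 1.5 times when the 6 libraries were fitted alone (414: 220 higher, 194 lower), with DESeq2 (1498: 718 higher, 780 lower) and, in total and among the lower genes, with no filter on low values (1183, 659 lower). It also moved among the higher genes in limma on log2(FPKM + 1) (663) and log2(FPKM + 0.1) (605), and among the lower ones after the GC and length correction (191) and in voom with quality weights (230). Leaving out 1 library at a time gave 193 to 1003 genes, 70 to 421 higher and 123 to 582 lower, with the low ends from WT libraries left out. Other size factors, edgeR's own filter and leaving out the mitochondrial genes kept each count within 1.5 times. Without Cxcl10-/- replicate 1, 2 or 3 the count was 942, 1003 and 853, and without WT replicate 1, 2 or 3 it was 229, 193 and 253. The cause of these shifts was not tested. Same-numbered libraries did not deviate together (correlations of their deviations from the group means between -0.082 and 0.018). This gave no sign of pairing by number, but it cannot exclude a shared litter or day. A replicate block called 442 genes (194 higher, 248 lower). Of the 99 genes named as called, Angpt1 (0.12) and Rgs18 (0.10) changed sign under the GC and length correction and 18 others lost their call there; in the other settings none changed sign. Genes near 3 counts in a group cannot be given a fold change at this depth.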
